A study of Mus musculus with 18 samples.

Results

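The genes described are the 8 that encode the 3 protein complexes passing the light signal on to the membrane of rod photoreceptors: Gnat1, Gnb1 and Gngt1 (transducin), Pde6a, Pde6b and Pde6g (cGMP phosphodiesterase) and Cnga1 and Cngb1 (the cyclic-nucleotide-gated channel). They were taken by name, as all probe sets for which the array annotation gives 1 of these symbols and no other. They hold 14 of the 34958 probe sets with a single symbol, and 8 of the 18193 genes those probe sets cover. Gngt1 has 4 probe sets, Gnb1 has 3, Pde6g has 2 and the other 5 genes have 1 each, and each gene is led by the probe set with the highest mean over all 18 arrays. RNA of whole isolated retinas had been hybridised to Affymetrix mouse genome expression arrays, with 3 arrays of Plk3-KO mice and 3 of their WT littermates at postnatal day 0 (P0), at P7 and in the adult. Plk3-KO mice lack the polo-like kinase Plk3 in every cell, without any Cre or transgene. The labels give C57Bl/6 as the strain of both genotypes. The line came partly from a Black Swiss background that carries the rd1 allele of Pde6b, one of the genes described here, and was bred to C57Bl/6 until litters no longer carried it. The labels do not say which arrays came from 1 litter or how many animals an array holds, so p-values measure the spread between these arrays. The exact age of the adults is not in the labels.

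In a rod, light leads to the loading of the transducin alpha subunit with GTP, which then leaves the beta and gamma subunits and binds the inhibitory gamma subunits of the phosphodiesterase. The freed catalytic alpha and beta subunits break down cGMP, and the channel in the plasma membrane, held open by cGMP in the dark, closes. Rods are the most numerous cell type of the mouse retina, are born from late gestation into the first postnatal days, and build their outer segments, where these proteins reside, after the first postnatal week. In whole retinas, fewer cells of a type and less RNA per cell cannot be told apart.

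All values are log2 MAS5 signals. A value of 7 was the minimum that the study's methods set for a group mean, and a probe set was tested between genotypes only where 1 of the 2 groups passed it, and between ages where any of the 6 groups did. Values of different probe sets have different scales, so that levels are set side by side only within a probe set, and only differences are compared between genes. Changes were tested with limma on all 18 arrays and called at a Benjamini-Hochberg adjusted p under 0.05 over all probe sets of the comparison. Arrays of 1 age correlated at 0.935 to 0.948 at P0, 0.904 to 0.956 at P7 and 0.802 to 0.922 in the adult. The difference between the 3' and 5' control probe sets of beta-actin, a sign of RNA integrity, was 2.7 on adult Plk3-KO array 3 against 1.6 to 1.8 on the other adult arrays, 1.6 at P7 on array 2 of Plk3-KO and array 3 of WT against 0.8 to 1.1 on the other P7 arrays, and 1.0 to 1.3 at P0. The single probe set of Plk3 averaged 7.90, 7.30 and 7.70 in Plk3-KO and 6.87, 6.10 and 5.20 in WT retinas at P0, P7 and in the adult. It lies at the 3' end of the mRNA and checks nothing about the deletion.

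Promoter windows of 5 of the 8 genes are shown, and these windows differ in composition. They are the 250 bases before the transcription start in RefSeq (mouse GRCm38.p6), 5′ to 3′ on the strand of the gene. Capitals mark 3 motifs, searched on both strands: TAATCC, the core bound by the photoreceptor homeodomain factor Crx, TGCTGA, the core bound by the rod leucine zipper factor Nrl, and TATAAA, the TATA box.
Gngt1, chr6:3993758-3994007, plus strand: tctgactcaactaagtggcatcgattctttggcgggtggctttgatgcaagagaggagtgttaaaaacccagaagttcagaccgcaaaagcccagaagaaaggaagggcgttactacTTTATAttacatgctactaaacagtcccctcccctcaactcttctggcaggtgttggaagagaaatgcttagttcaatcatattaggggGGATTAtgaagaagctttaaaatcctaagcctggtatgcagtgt
Pde6b, chr5:108388123-108388372, plus strand: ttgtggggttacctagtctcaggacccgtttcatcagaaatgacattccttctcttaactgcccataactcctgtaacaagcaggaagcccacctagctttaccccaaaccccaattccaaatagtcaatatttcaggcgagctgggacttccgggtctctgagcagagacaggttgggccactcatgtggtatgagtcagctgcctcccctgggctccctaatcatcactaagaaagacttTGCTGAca
Cnga1, chr5:72642753-72643002, minus strand: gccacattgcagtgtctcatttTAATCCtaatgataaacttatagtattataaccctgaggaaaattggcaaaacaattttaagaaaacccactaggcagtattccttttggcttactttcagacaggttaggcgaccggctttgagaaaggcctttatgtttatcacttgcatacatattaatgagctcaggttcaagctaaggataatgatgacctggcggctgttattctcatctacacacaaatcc
Cngb1, chr8:95306586-95306835, minus strand: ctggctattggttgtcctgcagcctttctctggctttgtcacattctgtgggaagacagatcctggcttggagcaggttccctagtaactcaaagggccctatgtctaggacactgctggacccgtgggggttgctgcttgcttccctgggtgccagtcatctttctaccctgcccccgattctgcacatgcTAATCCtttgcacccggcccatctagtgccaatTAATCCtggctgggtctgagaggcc
Gnb1, chr4:155491111-155491360, plus strand: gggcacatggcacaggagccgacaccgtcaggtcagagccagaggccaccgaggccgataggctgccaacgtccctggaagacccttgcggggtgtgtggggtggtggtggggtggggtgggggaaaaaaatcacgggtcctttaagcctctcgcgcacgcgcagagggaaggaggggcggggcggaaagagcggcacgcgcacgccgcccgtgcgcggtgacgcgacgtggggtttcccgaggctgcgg

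The Crx core was found in 3 of these 5 windows, against 6.25% of 32851 mouse promoter windows of the same length. Cngb1 held it 2 times on its own strand, the nearer copy 25 to 20 bases before the start, Cnga1 held 1 copy 228 to 223 bases before the start, and Gngt1 held 1 on the opposite strand, 44 to 39 bases before the start. The Nrl core was found in 1 window, that of Pde6b, 8 to 3 bases before the start, against 16.1% of all windows. TATAAA was found in 1 window, that of Gngt1, on the opposite strand 133 to 128 bases before the start, against 12.4% of all windows. Gnb1 held none of the 3 motifs, which says only that these letters are not in this window. The window of Gnb1 was 69.2% G and C, against 44.0% for Gngt1, 49.6% for Pde6b, 38.4% for Cnga1, 55.6% for Cngb1 and a median of 52.4% over all windows. These are matches of letters and were not tested as binding sites. No window of Gnat1 or Pde6g was used, and chromosome 18, where Pde6a lies, was left out of the search of the members. The counts of motifs thus cover only 5 of the 8 genes.

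Of the transducin subunits, Gnat1, the rod-specific alpha subunit that carries the GTP, lies on chromosome 9. At P0 its probe set read 5.2, 5.6 and 6.0 in Plk3-KO and 5.9, 4.2 and 4.8 in WT retinas. At P7 it read 10.2, 11.3 and 11.5 in Plk3-KO and 11.4, 12.5 and 10.2 in WT retinas, and in the adult it read 16.2, 16.0 and 17.4 in Plk3-KO and 16.5, 16.0 and 15.5 in WT retinas. The ages did not overlap in either genotype and the genotypes overlapped at every age. Gnat1 was below the minimum at P0, so the size of its first step is not firm. It rose by 5.40 in Plk3-KO (SE 0.553, limma adjusted p = 4.04e-06) and 6.40 in WT retinas (SE 0.553, adjusted p = 8.46e-07) between P0 and P7. Between P7 and the adult it rose again by 5.53 in Plk3-KO (adjusted p = 8.1e-06) and 4.63 in WT retinas (adjusted p = 4.46e-05), a 46.3-fold and a 24.8-fold change. Under quantile normalization the later step of Gnat1 in Plk3-KO retinas was 4.55. This second step was the largest of the 8 genes in each genotype. In the adult it stood at or within 0.2 of the highest value of each array outside the control probe sets, 15.7 to 17.4 over the 6 adult arrays. The highest value with control probe sets included was 19.2, so an upper limit of the signal near Gnat1 is not shown. Whether its adult level is understated was not tested.

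Gnb1 encodes the beta subunit, which rods share with many G proteins of other cells. It lies on chromosome 4, as Plk3 does. Its leading probe set read 13.2, 13.0 and 13.2 in Plk3-KO and 12.9, 13.0 and 13.0 in WT retinas at P0. At P7 it read 14.2, 14.8 and 14.3 in Plk3-KO and 14.0, 14.1 and 14.2 in WT retinas, and in the adult 15.9, 15.6 and 16.4 in Plk3-KO and 16.0, 15.5 and 15.2 in WT retinas. Gnb1 was thus well above the minimum at birth and rose least of the 8 genes, by 1.30 in Plk3-KO (SE 0.248, limma adjusted p = 0.00131) and 1.13 in WT retinas (SE 0.248, adjusted p = 0.00396) to P7. From P7 to the adult it rose by 1.53 in Plk3-KO (adjusted p = 0.000586) and 1.47 in WT retinas (adjusted p = 0.000881). Under quantile normalization this second step of Gnb1 was 0.65 in Plk3-KO (adjusted p = 0.0444) and 0.93 in WT retinas (adjusted p = 0.0068).

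Gngt1 encodes the gamma subunit of rod transducin and lies on chromosome 6. Its leading probe set read 9.4, 9.9 and 7.9 in Plk3-KO and 9.2, 9.9 and 7.6 in WT retinas at P0, and 13.3, 15.0 and 13.9 in Plk3-KO and 13.3, 13.5 and 14.6 in WT retinas at P7. The adult values were 15.1, 14.7 and 16.2 in Plk3-KO and 15.2, 14.9 and 14.4 in WT retinas. The rise to P7 was 5.0 in Plk3-KO (SE 0.621, limma adjusted p = 2.77e-05) and 4.90 in WT retinas (SE 0.621, adjusted p = 3.87e-05), a 32.0-fold and a 29.9-fold change. It was 4.28 in Plk3-KO and 4.20 in WT retinas with array weights, and 4.25 in WT retinas without WT array 3 of P0. After P7 the arrays of the ages overlapped, and the differences of 1.27 in Plk3-KO (95% interval -0.05 to 2.58) and 1.03 in WT retinas (-0.28 to 2.35) did not pass.

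**Figure D1:**
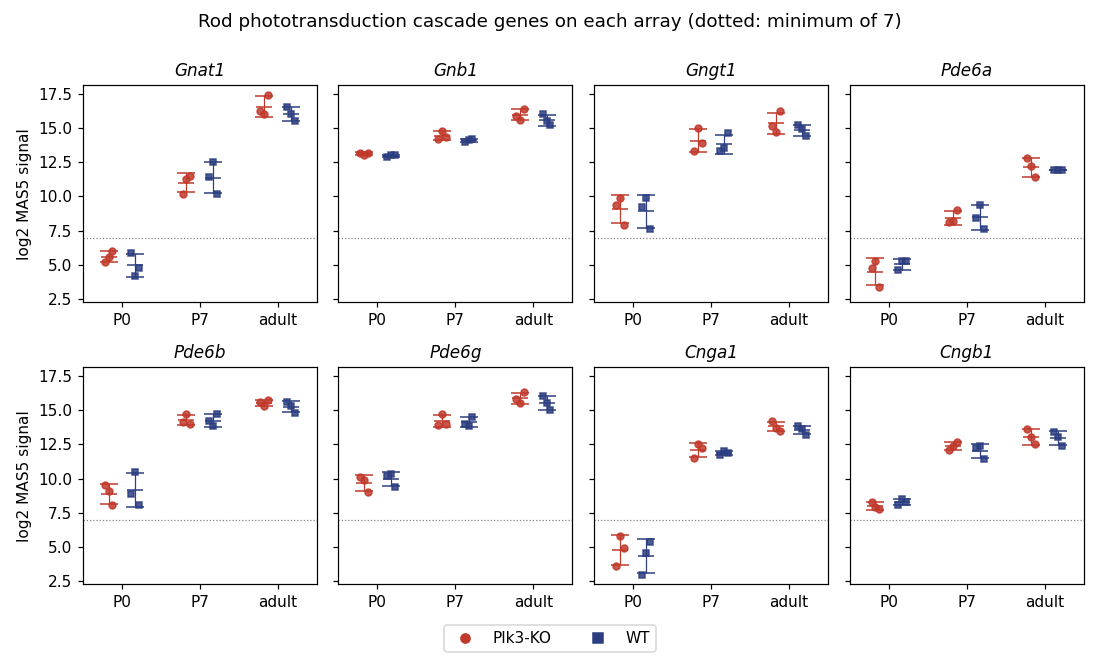
Log2 MAS5 signal (vertical axis) of the leading probe set of each gene at P0, P7 and in the adult, with Plk3-KO arrays as red circles and WT arrays as blue squares. Bars give the mean and SD of 3 arrays and the dotted line the minimum of 7. Gnat1, Pde6a and Cnga1 lie below the line at P0, Gnb1 lies far above it at every age, and the genotypes overlap in every panel and at every age.

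The catalytic subunits of the phosphodiesterase differed in when they rose. Pde6b, the beta subunit (chromosome 5), read 9.5, 9.1 and 8.1 in Plk3-KO and 8.9, 10.5 and 8.1 in WT retinas at P0. It read 14.1, 14.7 and 14.0 in Plk3-KO and 14.2, 13.8 and 14.7 in WT retinas at P7, and 15.6, 15.3 and 15.7 in Plk3-KO and 15.6, 15.3 and 14.8 in WT retinas in the adult. Each adult array thus read above each P7 array of its genotype, and the lowest adult array of the 6 was a WT array. The rise to P7 was 5.37 in Plk3-KO (SE 0.478, limma adjusted p = 9.25e-07) and 5.07 in WT retinas (SE 0.478, adjusted p = 2.03e-06), or 5.73 in WT without WT array 2 of P0. The later difference, 1.27 in Plk3-KO (adjusted p = 0.0795) and 1.0 in WT retinas (adjusted p = 0.158), did not pass. It passed in Plk3-KO retinas without WT array 2 (adjusted p = 0.0256) or WT array 3 of P0 (adjusted p = 0.048), where only the spread changed.

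Pde6a, the alpha subunit, lies on chromosome 18. It read 4.8, 5.3 and 3.4 in Plk3-KO and 4.6, 5.3 and 5.3 in WT retinas at P0, below the minimum. At P7 it read 8.1, 8.2 and 9.0 in Plk3-KO and 8.4, 9.4 and 7.6 in WT retinas, and in the adult 12.8, 12.2 and 11.4 in Plk3-KO and 11.9 on each of the 3 WT arrays. Pde6a rose by 3.93 in Plk3-KO (SE 0.498, limma adjusted p = 3.31e-05) and 3.40 in WT retinas (adjusted p = 0.000148) to P7, and by a further 3.70 in Plk3-KO (adjusted p = 0.000123) and 3.43 in WT retinas (adjusted p = 0.000257) to the adult, a 13.0-fold and a 10.8-fold change. The later step was 4.83 in Plk3-KO and 4.23 in WT retinas with the actin covariate.

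Pde6g encodes the small inhibitory subunit that holds the enzyme off in the dark, and lies on chromosome 11. Its leading probe set read 10.1, 9.9 and 9.0 in Plk3-KO and 10.2, 10.3 and 9.4 in WT retinas at P0, and 13.9, 14.7 and 14.0 in Plk3-KO and 14.0, 13.8 and 14.5 in WT retinas at P7. The adult arrays read 15.8, 15.5 and 16.3 in Plk3-KO and 16.0, 15.5 and 15.0 in WT retinas. It rose by 4.53 in Plk3-KO (limma adjusted p = 2.94e-07) and 4.13 in WT retinas (adjusted p = 7.9e-07) to P7, and by 1.67 in Plk3-KO (adjusted p = 0.00435) and 1.40 in WT retinas (adjusted p = 0.0131) after it. Under quantile normalization the later rise in Plk3-KO retinas was 0.84 (adjusted p = 0.0338). With the actin measure of each array as a covariate, it fell short of the threshold, at 1.07 in Plk3-KO (adjusted p = 0.0853) and 0.98 in WT retinas (adjusted p = 0.0647). It also fell short in WT retinas without adult WT array 1 (1.15, adjusted p = 0.0746).

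The channel subunits rose mostly before P7. Cnga1, the alpha subunit that forms the cGMP-gated pore (chromosome 5), read 3.6, 5.8 and 4.9 in Plk3-KO and 3.0, 4.6 and 5.4 in WT retinas at P0, below the minimum. At P7 it read 11.5, 12.5 and 12.2 in Plk3-KO and 11.7, 12.0 and 11.9 in WT retinas, and in the adult 14.2, 13.7 and 13.5 in Plk3-KO and 13.8, 13.6 and 13.2 in WT retinas. The first step, 7.30 in Plk3-KO (SE 0.53, limma adjusted p = 1.58e-07) and 7.53 in WT retinas (SE 0.53, adjusted p = 1.26e-07), was higher than that of the other 7 genes in each genotype, on the log2 scale and from a level below the minimum, and was 6.87 in WT retinas without WT array 1 of P0. The second, 1.73 in Plk3-KO (adjusted p = 0.0335) and 1.67 in WT retinas (adjusted p = 0.0405), passed narrowly. It was lost in Plk3-KO retinas without Plk3-KO array 1 of P7 (1.45, limma adjusted p = 0.13), array 3 of P7 (1.80, adjusted p = 0.0666), array 1 of the adult (1.53, adjusted p = 0.107) or array 2 of the adult (1.78, adjusted p = 0.0658). In WT retinas it was lost without WT array 1, 2 or 3 of P7 (1.58 to 1.73, adjusted p = 0.0727 to 0.106) or array 1 or 2 of the adult (1.53 and 1.63, adjusted p = 0.136 and 0.11), and, at an adjusted p of 0.05 to 0.0508, without any 1 of 4 arrays of other groups (Plk3-KO array 3 of P0, WT array 2 of P0, and Plk3-KO arrays 3 of P7 and 2 of the adult).

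Cngb1 encodes the beta subunit of the channel and lies on chromosome 8. It read 8.3, 7.9 and 7.8 in Plk3-KO and 8.1, 8.5 and 8.3 in WT retinas at P0, and 12.1, 12.4 and 12.7 in Plk3-KO and 12.2, 12.4 and 11.4 in WT retinas at P7. In the adult it read 13.6, 13.0 and 12.5 in Plk3-KO and 13.4, 13.0 and 12.4 in WT retinas, and overlapped with P7 in both genotypes. The first step was 4.40 in Plk3-KO (limma adjusted p = 1.33e-07) and 3.70 in WT retinas (adjusted p = 6.85e-07). The second, 0.63 in Plk3-KO (adjusted p = 0.183) and 0.93 in WT retinas (adjusted p = 0.0506), did not pass. In WT retinas it passed without WT array 2 of P7 (1.13, adjusted p = 0.0393), WT array 3 of the adult (1.20, adjusted p = 0.0137) or Plk3-KO array 1 or 3 of the adult (0.93 in both, adjusted p = 0.0371 and 0.0333).

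Counted together, 8 of the 8 genes rose from P0 to P7 in Plk3-KO and 8 of 8 in WT retinas, where 10.1% and 10.3% of all 25085 probe sets tested rose in Plk3-KO and in WT. For 8 of the 8 genes each P7 array read above each P0 array of its genotype, which was so for 17.9% of all probe sets in Plk3-KO and 17.2% in WT. From P7 to the adult, 5 of 8 rose in Plk3-KO and 5 of 8 in WT retinas, against 7.96% and 8.54% of all probe sets. They were Gnat1, Gnb1, Pde6a, Pde6g and Cnga1 in both genotypes. The arrays of these 5 genes and of Pde6b did not overlap between P7 and the adult, as for 13.9% of all probe sets upwards in Plk3-KO and 15.5% in WT, while those of Gngt1 and Cngb1 did. From P0 to the adult, 8 of 8 rose in each genotype, against 19.4% in Plk3-KO and 20.7% in WT. The median difference of the 8 genes was 4.77 in Plk3-KO and 4.52 in WT retinas for the first step and 1.60 in Plk3-KO and 1.44 in WT for the second, while the median over all probe sets tested was -0.10 for each step and genotype. Genes of retinal progenitors and the cell cycle, a list of 7 measured genes, fell together in the same interval. All 7 were lower at P7 than at P0 in each genotype by the same test, as were 9.66% of all probe sets in Plk3-KO and 8.85% in WT, and the mean of the list ranged from 12.46 to 12.61 in Plk3-KO and 12.27 to 12.49 in WT arrays at P0, from 8.57 to 9.07 in Plk3-KO and 8.73 to 9.49 in WT arrays at P7, and from 5.94 to 6.74 in Plk3-KO and 5.47 to 6.57 in WT arrays in the adult. None of the 7 was below the minimum at P0, 1 at P7 and 3 in the adult, in each genotype. The part of this fall in the rise of the rod genes was not tested.

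**Figure D2:**
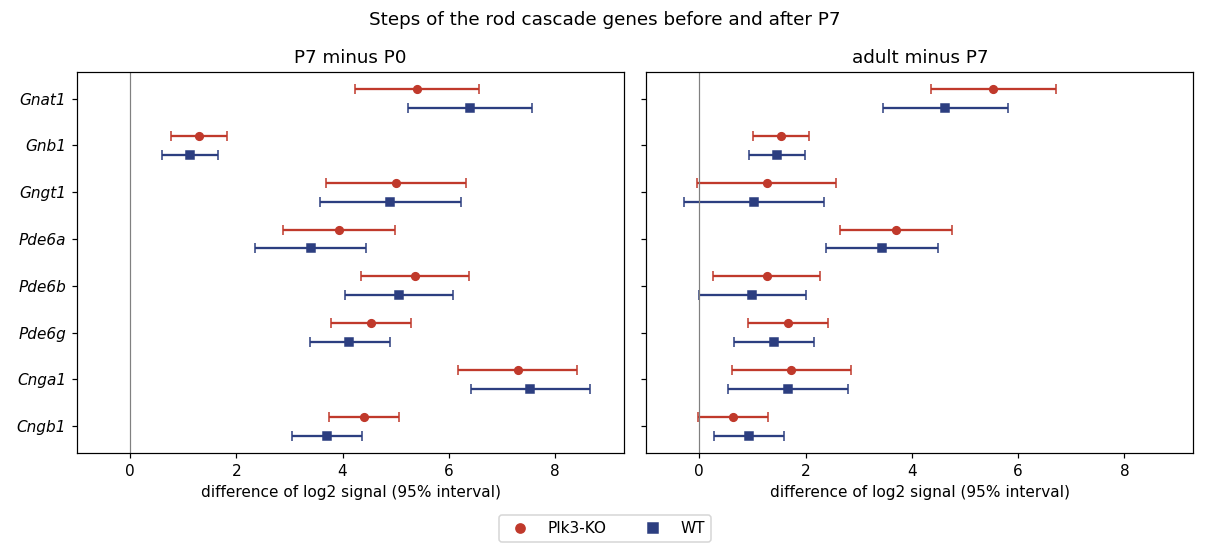
Difference of log2 signal (horizontal axis) between P7 and P0 (left) and between the adult and P7 (right) for the leading probe set of each gene, with 95% intervals from limma, in Plk3-KO (red circles) and WT retinas (blue squares). Pde6a has 2 steps of similar size, as Gnat1 has in Plk3-KO, while Gnat1 in WT has 6.40 and then 4.63. The first steps of Gnat1 and Pde6a start below the minimum and are not firm in size. Gnb1 has 2 small steps, and Gngt1, Pde6b, Pde6g, Cnga1 and Cngb1 have a first step larger than the second.

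The share of the whole log2 rise that was reached by P7 differed between the leading probe sets. It was 49.4% in Plk3-KO and 58.0% in WT for Gnat1, 51.5% in Plk3-KO and 49.8% in WT for Pde6a, and 45.9% in Plk3-KO and 43.6% in WT for Gnb1. For Gngt1, Pde6b, Pde6g, Cnga1 and Cngb1 it lay between 73.1% and 87.4% in Plk3-KO and between 74.7% and 83.5% in WT retinas. Further probe sets gave other shares, 55.6% in Plk3-KO and 50.5% in WT for 1417432_a_at of Gnb1 and 50.8% in Plk3-KO and 62.7% in WT for 1425168_at of Gngt1, and the shares were not recomputed under other normalizations. For genes below the minimum at P0 these shares rest on an uncertain starting value. Whether the end is understated for those with the highest adult values was not tested.

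Partners of 1 complex were therefore compared within each array, as the change with age of the difference between 2 genes, over the 6 arrays of an age with both genotypes pooled (exact two-sided permutation test, whose smallest possible p is 0.00216). The 7 pairs of subunits and 2 steps gave 14 tests, chosen with the levels in view and not adjusted. Only leading probe sets were used, and no pair was tested with the further ones. From P7 to the adult, Gnat1 gained 3.93 on Gngt1 (exact p = 0.00216) and 3.58 on Gnb1 (exact p = 0.00216). Gnb1 against Gngt1 changed by 0.35 (exact p = 0.208). Their leading probe sets differed after P7 by 1.53 and 1.27 in Plk3-KO and by 1.47 and 1.03 in WT retinas. The further probe sets of Gngt1 differed by 0.13, 0.63 and 1.93 in Plk3-KO and by 0.57, 0.63 and 1.77 in WT. The last of them was below the minimum at P7. Pde6a gained 2.43 on Pde6b in each genotype (exact p = 0.00216) and 2.03 on Pde6g in each genotype (exact p = 0.00433). Pde6b lost 0.40 to Pde6g after P7 (exact p = 0.00216), the same in both genotypes. It had gained 0.88 on Pde6g before P7 (exact p = 0.0152). Both sizes hold only for the leading probe set of Pde6g. Its second probe set lay closer to Pde6b in each step. After P7 it rose by 1.43 in Plk3-KO and 1.13 in WT retinas, against 1.27 and 1.0 for Pde6b. Before P7 it rose by 5.0 in Plk3-KO and 4.43 in WT, against 5.37 and 5.07 for Pde6b. Before P7, Gnb1 lost 3.73 to Gngt1 (exact p = 0.00216). Cnga1 gained 0.92 on Cngb1 after P7, 1.10 in Plk3-KO and 0.73 in WT retinas (exact p = 0.00433). The other 5 pairs before P7 include Gnat1, Pde6a or Cnga1, which lay below the minimum at P0, so their first step is not firm and nothing is read from it. The measured changes were 4.68 for Gnat1 against Gnb1, 0.95 for Gnat1 against Gngt1, -1.55 for Pde6a against Pde6b, -0.67 for Pde6a against Pde6g and 3.37 for Cnga1 against Cngb1.

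The further probe sets of Gnb1, Pde6g and Gngt1 gave the same calls between ages with 2 exceptions, though not the same sizes of step. The second probe set of Gnb1 (1417432_a_at) rose by 2.0 in Plk3-KO and 1.87 in WT retinas to P7 and by 1.60 in Plk3-KO and 1.83 in WT after it, each with a limma adjusted p of 0.000447 or less. The second of Pde6g (1450453_a_at) rose by 5.0 in Plk3-KO and 4.43 in WT and then by 1.43 in Plk3-KO and 1.13 in WT retinas, all of which passed. The probe sets of Gngt1 with the next highest means (1425167_a_at and 1425219_x_at) rose by 4.67 and 5.90 in Plk3-KO and by 4.83 and 5.70 in WT retinas to P7. After P7 they differed by 0.13 and 0.63 in Plk3-KO and by 0.57 and 0.63 in WT retinas, which did not pass.

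The first exception was the lowest probe set of Gngt1 (1425168_at). It was above the minimum only in the adult, at 8.37 ± 0.40 in Plk3-KO and 8.47 ± 0.83 in WT retinas (SD, n = 3), and was called higher in both steps. Both ages of the first step lay below the minimum, with 6.43 at P7 against 4.43 at P0 in Plk3-KO and 6.70 against 3.73 in WT retinas, so that its size is not firm. After P7 it rose by 1.93 in Plk3-KO (limma adjusted p = 0.0272) and 1.77 in WT retinas (adjusted p = 0.0418). The second was a probe set of Gnb1 (1425908_at) that stayed below the minimum in every group, averaging 3.69, and was not tested. It read 4.5, 4.1 and 4.4 in Plk3-KO and 0.3, 3.1 and 0.8 in WT retinas at P7, and 5.0, 5.6 and 5.9 in Plk3-KO and 3.9, 3.9 and 4.4 in WT retinas in the adult, so that the genotypes did not overlap at these ages. At P0 they did, with 3.9, 4.8 and 2.8 in Plk3-KO and 5.3, 0.9 and 2.8 in WT. Neither other probe set of Gnb1 showed such a separation. How often probe sets below the minimum separate in this way is not given, so nothing is read from it about Gnb1. Averaging it with the other probe sets of Gnb1 took the call from the rise to P7 in WT retinas (0.47, adjusted p = 0.285). Probe sets of 1 gene also parted on 1 array: on adult Plk3-KO array 3, which had the highest actin measure, the leading probe sets of Gngt1 and Gnb1 read 16.2 and 16.4, above the other adult Plk3-KO arrays, while 1425167_a_at and 1417432_a_at read 13.7 and 14.6, below them.

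**Figure D3:**
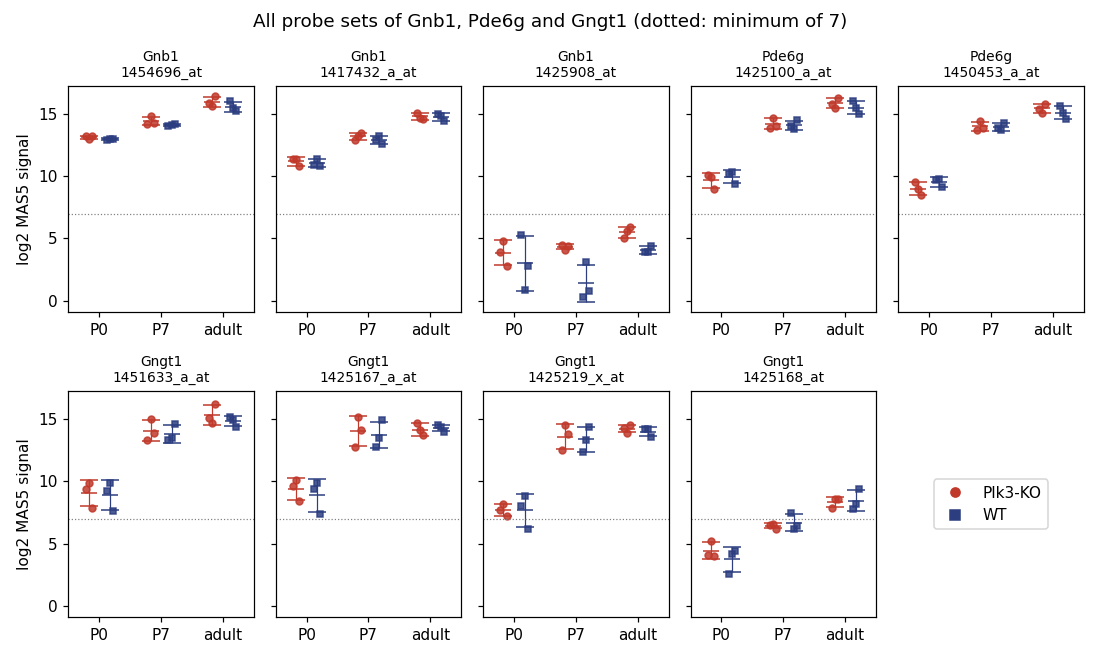
Log2 MAS5 signal (vertical axis) of every probe set of Gnb1, Pde6g and Gngt1 at P0, P7 and in the adult, drawn as in the plot of the leading probe sets, with mean and SD of 3 arrays and the minimum of 7 as a dotted line. Gnb1 1425908_at lies below the line in all groups and was not tested, with Plk3-KO above WT at P7 and in the adult. Gngt1 1425168_at crosses the line only in the adult.

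Between genotypes, none of the tested leading probe sets was called at any age. At P0, 0 of the 5 tested genes passed, at P7 0 of 8 and in the adult 0 of 8, where 0% of the 22611, 21390 and 21005 probe sets tested passed in either direction. At an unadjusted p under 0.05, limma gave 85, 123 and 1008 of all probe sets at P0, P7 and in the adult, or 0.376%, 0.575% and 4.8%. The fit shared 1 estimate of the spread over all ages, although adult arrays correlated least with each other. Its p-values at P0 and P7 may thus be too large and its intervals too wide. In the adult, and for the step from P7 to the adult, its p-values may be too small and its intervals too narrow. With only the age compared in the fit, 0% of all probe sets passed at each age after adjustment. The methods' t-test, unadjusted, gave 0 of the 5 tested genes at P0, 0 of 8 at P7 and 0 of 8 in the adult, and 2.22%, 1.17% and 3.14% of all probe sets. In the adult the Plk3-KO minus WT differences ran from 0.10 for Cngb1 to 0.53 for Gnat1, with a median of 0.33 against -0.03 over all probe sets tested. At P7 they ran from -0.37 for Gnat1 to 0.40 for Cngb1 (median 0.15 against 0.00), and at P0, the 3 genes below the minimum included, from -0.57 for Pde6a to 0.63 for Gnat1. The genotypes overlapped in every leading probe set and at every age. Of all probe sets tested, 1.74% at P0, 0.79% at P7 and 2.11% in the adult lay wholly higher in Plk3-KO. These shares leave out the probe sets that lay wholly lower. The exact two-sided permutation test of single genes gave p from 0.2 to 1.0, and cannot go below 0.1 with 3 arrays against 3.

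The adult interval of Gnb1 was -0.13 to 0.93 around 0.40, and those of the other genes reached from -0.86 for Cnga1 up to 1.82 for Gngt1. The adult sign was not firm. Gnat1 was -0.02 under quantile normalization, and -0.15 without the 4 arrays chosen from an earlier analysis as standing apart (number 3 of each genotype in the adult, and at P7 number 2 of Plk3-KO and number 3 of WT). Gnb1, Gngt1, Pde6a, Pde6b, Pde6g and Cngb1 also went below 0 under at least 1 of the settings tried, and Cnga1 under none. The lists of other cells had adult medians over their tested genes of -0.38 (bipolar), -0.36 (amacrine), -0.27 (horizontal), -0.10 (ganglion), -0.32 (Müller glia), -0.33 (microglia), -0.55 (vascular), -0.36 (progenitors), -1.70 (lens) and 0.33 (pigment epithelium), with no gene called. Other photoreceptor lists lay at 0.35 (other rod phototransduction genes), 0.57 (outer segment structure), 0.37 (transcription factors), 0.30 (cone counterparts) and 0.20 (cone opsins and arrestin), again with no gene called. Genes of assembly or transport lay at 0.01 and other G beta genes at -0.40. The adult lean was thus not particular to the 8 genes. The mean of the lens list ranged from 5.84 to 9.97 in Plk3-KO and from 8.76 to 11.69 in WT adult arrays, and its part in the other values was not tested. The change from P7 to the adult differed between Plk3-KO and WT by -0.30 (Cngb1) to 0.90 (Gnat1), and that from P0 to P7 by -1.0 (Gnat1) to 0.70 (Cngb1). None passed for any of the 8 genes, and 0% of 25085 probe sets passed at either step.

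**Figure D4:**
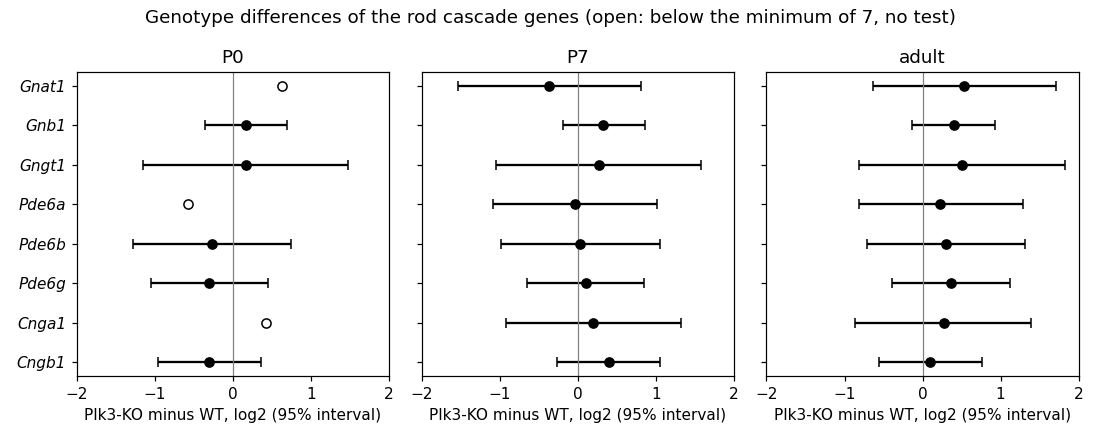
Plk3-KO minus WT difference of log2 signal (horizontal axis) for the leading probe set of each gene at P0, P7 and in the adult, with 95% intervals from limma. Every interval includes 0, the adult points lie between 0.10 and 0.53, and open points without an interval mark the 3 genes below the minimum at P0.

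Within groups, some of the genes moved together from array to array. Gngt1, Pde6b and Pde6g shared their deviations from the group means, with Pearson correlations of 0.92 for Gngt1 with Pde6g, 0.83 for Gngt1 with Pde6b and 0.82 for Pde6b with Pde6g over the 18 arrays. Pde6a with Cngb1 followed at 0.69, Gnb1 with Pde6g at 0.64 and Gnb1 with Gngt1 at 0.49. The median of the 28 pairs was 0.08 and the lowest -0.32, although over ages and genotypes together the same pairs correlated at 0.88 to 0.99. These are descriptions, since genes of 1 array share its RNA and its scaling. At P0, array 3 of each genotype was lowest for Gngt1, Pde6b and Pde6g. At P7, the 2 arrays with the raised actin measure, number 2 of Plk3-KO and number 3 of WT, were highest for these 3 genes, while WT array 3 was lowest for Gnat1, Pde6a and Cngb1. In the adult, WT array 1 was highest and WT array 3 lowest of its group for 8 of the 8 genes, ties at Pde6a included. The part of RNA integrity in these deviations was not tested.

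**Figure D5:**
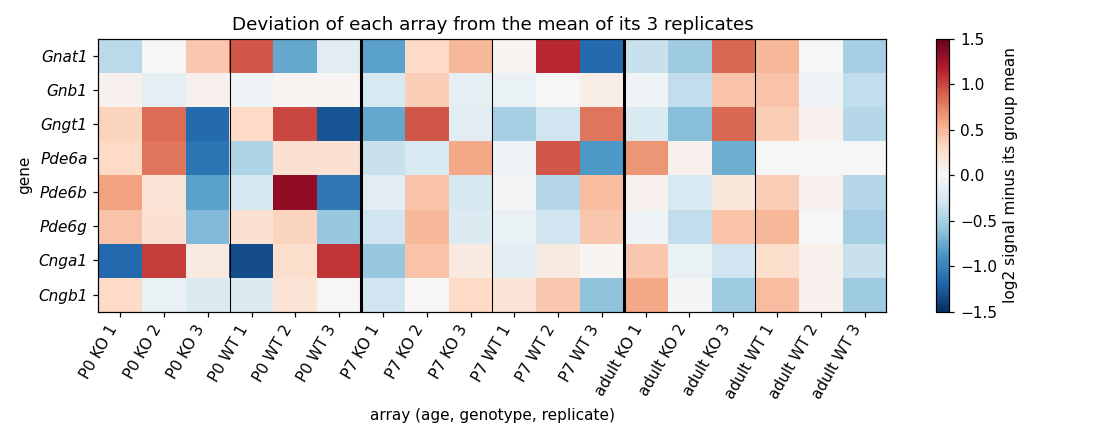
Deviation of the log2 signal of each gene (rows) on each array (columns) from the mean of the 3 arrays of its group, in red above and in blue below it. Gngt1, Pde6b and Pde6g turn blue together on array 3 at P0 in both genotypes and red together at P7 on array 2 of Plk3-KO and array 3 of WT. The furthest deviation is 1.33.

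The cone genes with the same roles were set beside the rod genes. Cones use their own transducin and phosphodiesterase subunits and another channel pair, and 6 of the 7 counterparts were measured, Cnga3 not being analysed here. From P0 to P7, 3 of 6 rose in Plk3-KO and 4 of 6 in WT retinas, and from P7 to the adult 3 of 6 in Plk3-KO and 2 of 6 in WT. Gnat2, the cone alpha subunit, rose by 0.90 in Plk3-KO and 0.80 in WT to P7 and by 2.23 in Plk3-KO and 2.0 in WT retinas after it, all of which passed. Gnb3 rose only before P7, by 1.60 in Plk3-KO and 1.53 in WT. Pde6c, the cone catalytic subunit, rose by 1.57 in Plk3-KO and 1.77 in WT to P7 and after it by 1.77 in Plk3-KO retinas, with 0.90 in WT retinas not passing (limma adjusted p = 0.094). Gngt2 and Cngb3 passed at neither step, with differences of -0.60 to 0.33 in Plk3-KO and -0.70 to 0.10 in WT retinas. Pde6h, the cone inhibitory subunit, differed to P7 by 2.03 in Plk3-KO (limma adjusted p = 0.158) and rose by 4.13 in WT retinas (adjusted p = 0.00589), and rose after it in both. Its WT mean at P0 lay below the minimum, so the size of its first step in WT is not firm. It was uneven at P7, with 7.8, 12.0 and 8.3 in Plk3-KO and 11.5, 11.3 and 8.0 in WT retinas, and read 13.8, 13.2 and 14.1 in Plk3-KO and 13.5, 13.3 and 12.8 in WT retinas in the adult.

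Set against their counterparts within arrays in 7 pairs (14 tests, exact two-sided permutation test, 6 arrays an age, not adjusted), the rod gene gained more before P7 in 5 pairs, of which those of Gnat1 and Pde6a start below the minimum and are not firm in size. Gnat1 gained 5.05 on Gnat2, Gngt1 4.98 on Gngt2, Cngb1 3.83 on Cngb3 and Pde6b 3.55 on Pde6c (exact p = 0.00216 for each), and Pde6a gained 2.0 on Pde6c (exact p = 0.00433). Gnb1 and Gnb3 did not part in that interval, at -0.35 (exact p = 0.314), nor did Pde6g and Pde6h, at 1.25 (exact p = 0.21), a pair with 2.50 in Plk3-KO and 0.00 in WT retinas. The WT value of that pair starts from a Pde6h mean below the minimum and is not firm. After P7, Gnat1 gained 2.97 on Gnat2, Pde6a 2.23 on Pde6c and Gnb1 1.72 on Gnb3 (exact p = 0.00216 for each). Cngb1 gained 1.43 on Cngb3 (exact p = 0.00433) and Gngt1 1.20 on Gngt2 (exact p = 0.0108). Pde6b changed by -0.20 against Pde6c (exact p = 0.617), and Pde6g lost 2.10 to Pde6h (exact p = 0.00649). Only leading probe sets were used. That of Gngt1 differed after P7 by 1.27 in Plk3-KO and 1.03 in WT retinas. Its further probe sets differed by 0.13, 0.63 and 1.93 in Plk3-KO and by 0.57, 0.63 and 1.77 in WT. The size of its gain thus holds only for the leading one. Before P7, the second probe set of Gnb1 rose by 2.0 in Plk3-KO and 1.87 in WT, against 1.30 and 1.13 for the leading one. The -0.35 against Gnb3 thus also holds only for the leading one.

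Genes acting around the cascade were counted from lists. Of 10 tested other rod phototransduction genes, 9 rose to P7 in each genotype, and 8 in Plk3-KO and 7 in WT retinas rose after it. Sag (arrestin, which helps to end the light response) rose by 3.20 in Plk3-KO and 3.23 in WT and then by 1.30 in Plk3-KO and 1.03 in WT retinas. Pdc (phosducin, which binds the transducin beta and gamma subunits) rose by 1.80 in Plk3-KO and 1.70 in WT to P7, and after it by 0.97 in Plk3-KO retinas, with 0.77 in WT retinas not passing (limma adjusted p = 0.0909). Guca1b, Gnb4 and Pdcl were named after their values were seen. Guca1b, which activates guanylate cyclase when calcium falls, rose by 2.67 in Plk3-KO and 3.50 in WT and then by 5.97 in Plk3-KO and 5.53 in WT. Gnb5, the beta subunit of the complex that speeds GTP hydrolysis on transducin, rose in both steps, by 2.17 and 1.70 in Plk3-KO and by 2.10 and 1.73 in WT retinas. Of the other G beta genes, Gnb2 fell by 1.30 in Plk3-KO and 0.87 in WT retinas after P7 and Gnb4 by 2.23 in Plk3-KO and 1.07 in WT. Of 4 genes that assemble or carry these proteins, 3 rose in each step and genotype. Aipl1, a chaperone of the phosphodiesterase, rose by 3.03 in Plk3-KO and 3.13 in WT and then by 1.83 in Plk3-KO and 1.63 in WT retinas. Unc119, which binds the lipid tail of transducin alpha, rose by 2.47 in Plk3-KO and 2.23 in WT and then by 1.23 in each genotype. The exception, Pdcl, a partner in folding G beta gamma, passed in no step. Of 6 genes of outer segment structure, 6 rose to P7 in each genotype, and 4 in Plk3-KO and 2 in WT retinas rose after it.

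Of 6 measured photoreceptor transcription factors, 3 rose in Plk3-KO and 2 in WT retinas to P7, and after P7 none rose and 2 of 6 fell in each genotype. Crx, required for photoreceptor gene expression, rose by 1.87 in Plk3-KO and 1.90 in WT retinas to P7, and Nrl, which sets rod fate, by 2.60 in Plk3-KO and 2.40 in WT. Their differences after P7, which did not pass, were 0.43 and 0.93 in Plk3-KO and 0.10 and 0.67 in WT retinas. Nr2e3 was not analysed here. Among 12108 genes, those whose values over the 18 arrays were most like a member's were named by Pearson's r, a description that follows age above all. Nrl stood first for Gngt1 (0.991), followed by Fabp12 and Pde6b itself, and Prcd, needed for outer segment discs, stood first for Pde6b and Pde6g (0.995 each). For Gnat1 the first was Abca4, the retinoid transporter of disc rims (0.988), and for Pde6a it was Slc24a1, the rod sodium, calcium and potassium exchanger (0.992). Cngb1 was closest to Grk1, a photoreceptor kinase (0.991), Cnga1 to Slco4a1 (0.983) and Gnb1 to Polg2 (0.982). The remaining genes named by this rule were Cplx4 and Gramd1b for Gnat1, Tnfaip3 and Guca1a for Gnb1, Vtn and Hcls1 for Pde6a, Fabp12 and Pcare for Pde6b, Fabp12 and Rcvrn for Pde6g, A330094K24Rik and C2cd2l for Cnga1 and Rd3 and Ptp4a3 for Cngb1, at 0.976 to 0.995.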

How the data were processed

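Retinal RNA of 18 mouse samples, 3 for each of 2 genotypes at 3 ages, had been amplified, labelled with biotin and hybridised to Affymetrix mouse genome expression arrays. The authors computed MAS5 signals in R with background correction and normalization, took log2, and deposited log2 values to 1 decimal for 45101 probe sets. Tool versions and the build behind the annotation are not given in the sources used here. Arrays of embryonic retinas are not analysed here, and scanner files were not used, so saturation could not be examined.

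The 64 control probe sets were left out. GEO's platform annotation gave 1 symbol for 34958 probe sets, several for 932 and none for 9211. Groups came from the sample labels. The fit, by limma 3.58.1 in R 4.3.3, gave each of the 6 groups its own mean (12 residual degrees of freedom) and was moderated with a trend over the 25085 probe sets whose mean passed the study's minimum of 7 in at least 1 group. P-values were adjusted by Benjamini-Hochberg within each comparison, for genotype over probe sets above 7 in either group compared. Single genes and within-array differences were tested by exact two-sided permutation (SciPy 1.17.1, Python 3.11.15). The fit was tested on simulated data. The number of arrays, 3 a group, limits the precision.

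The members, the gene lists, the subunit pairs and the tests were chosen with earlier results of these data known. Named were the 8 members with all their probe sets, Plk3, all cone counterparts, Crx, Nrl and Nr2e3, the 2 genes of another list with the highest mean over the 18 arrays where a list is described by genes, and, for each member, the 3 genes with the highest Pearson's r over the 18 arrays. Replicate numbers were checked for pairing. Alternatives covered normalization (quantile, median centring), the minimum, the trend, array weights, the samples in the fit, a replicate block, an actin covariate, the probe sets of a gene, the methods' t-test and leaving out arrays.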

Additional observations from a re-analysis of the deposited data

How the results depend on the processing

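The rise of the 8 genes from P0 to P7 and from P0 to the adult passed for 8 of 8 in each genotype under every alternative but 1. This was the mean of all probe sets of a gene, which took Gnb1 from the rise to P7 in WT retinas. No genotype difference of the 8 genes, nor a difference between genotypes in the age differences, passed under any alternative. Over all probe sets some did pass. Adult genotype differences passed for 6.91% with array weights, 1.67% without the 4 arrays standing apart and 0.501% without adult WT array 3, against 0% in the main fit. With array weights, 1.12% differed between genotypes in the step from P7 to the adult. The count from P7 to the adult was the one that moved. The 5 genes in Plk3-KO and 5 in WT became 8 and 8 with array weights, whose estimation did not converge, and 1 and 1 when the methods' t-test was adjusted (6 and 6 unadjusted). The share of all probe sets that passed in either direction moved as well. It was 17.2% in Plk3-KO and 17.3% in WT in the main fit, and 44% and 55% with array weights. With the t-test it was 1.92% and 2.16% adjusted, and 21.7% and 22.8% unadjusted. Fitting only the ages compared gave 24.9% from P0 to P7 in each genotype, against 19.8% in Plk3-KO and 19.2% in WT. From P7 to the adult that fit gave 11.5% in Plk3-KO and 11.4% in WT. Over all probe sets, leaving out single arrays gave shares of 11.3% to 19.5% in Plk3-KO and 9.3% to 26.8% in WT retinas. It gave 4 to 6 of the 8 genes in Plk3-KO and 3 to 6 in WT retinas. The 3 came without adult WT array 1, where Pde6g lost its call (1.15, limma adjusted p = 0.0746) along with Cnga1. Cnga1 also lost its call with arrays centred on their medians (adjusted p = 0.0665 in Plk3-KO and 0.0573 in WT) and with the actin covariate (0.116 in Plk3-KO and 0.0752 in WT). Cngb1 passed with that covariate, at 1.20 in Plk3-KO (adjusted p = 0.0303) and 1.34 in WT retinas (0.00735), and Pde6b passed in Plk3-KO when only the ages compared were fitted (0.0306). With the replicate block, 5 genes passed in Plk3-KO and 6 in WT retinas, Cngb1 being added (0.93, adjusted p = 0.0371), and no other count changed. Of all probe sets, 16.2% in Plk3-KO and 19.1% in WT then passed in either direction. The labels do not say what a replicate number marks, and it was not taken to pair arrays. The deviations of arrays of 1 number correlated at -0.058 to 0.188 at P0, -0.61 to 0.379 at P7 and 0.098 to 0.544 in the adult. Those of different numbers correlated at -0.251 to 0.126 at P0, -0.467 to 0.626 at P7 and -0.633 to 0.413 in the adult. In the adult the range of 1 number thus lay higher, though the ranges overlapped, so pairing at that age is not settled. Centring moved the median over all probe sets of the P7 minus P0 difference to 0.17, against -0.10. The cause of these changes was not tested. The mean of the probe sets above the minimum was an alternative chosen after seeing the data. Of the values of single genes, 64 uncalled genotype differences and 43 uncalled differences between genotypes in the age differences changed sign. The 3 arrays a group limit every comparison, and values below the minimum at P0 limit the first step of Gnat1, Pde6a and Cnga1. Whether the highest adult values, those of Gnat1 among them, are understated was not tested.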
